A study of Mus musculus with 3 samples.

Results

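Open chromatin was examined at 34 genes that mark the myeloid, erythroid and megakaryocyte branches of blood formation, in transformed mouse pre/pro-B cells. The 34 genes were chosen by name as a check of lineage fidelity, and all 34 were found among the 22028 protein-coding genes of the annotation. For each gene, peaks were taken in its promoter window, from 2000 bp before to 200 bp after any annotated transcription start. They were also taken in its extended window, the gene body with 10 kb on either side.

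The cells came from bone marrow of C57BL/6 mice that were homozygous either for wildtype *Cdk6* (Cdk6+/+, called WT here) or for the kinase-inactive K43M allele (Cdk6KM/KM, called K43M). Marrow of both genotypes had been transduced with the retroviral vector pMSCV-BCR-ABLp185-IRES-GFP, so the BCR-ABL(p185) oncogene and GFP were shared by every line, and lines grew out in culture. Each library is 1 cell line, with 2 lines per genotype, and the sources used here give neither the age of the donors nor whether a line is 1 clone. ATAC-seq uses a transposase that cuts DNA where it is accessible, and the deposited data are 4 lists of peaks, 1 per library.

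WT replicate 2, K43M replicate 1 and K43M replicate 2 are named by their labels. The fourth list belongs to no labelled sample. It was taken as the other WT line from the design text of the series, which says that this line had been submitted earlier, and it is called WT unnumbered here. Below, a pair of WT values is given with WT unnumbered first and a pair of K43M values with replicate 1 first. The lists held 33038 to 39038 peaks, most of them in K43M replicate 1, and the genome-wide background recovered from the peak values ran from 48.4 read ends per 10 kb in K43M replicate 2 to 65.3 in WT unnumbered. Peak lists carry no bases, so the K43M change itself could not be checked. A gene without a peak is one whose signal was not called at this depth, which does not show that its chromatin was closed.

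Blood progenitors choose between lineages through transcription factors that hold the programmes of other lineages shut while opening their own. In B-cell development, EBF1 and PAX5 act against the myeloid genes. C/EBP factors with PU.1 drive granulocytes and monocytes, and forced expression of C/EBP factors can turn B cells into macrophage-like cells. GATA1, TAL1, KLF1 and GFI1B direct red cell and platelet precursors. Promoters rich in CpG dinucleotides are often open in many cell types, whereas CpG-poor promoters tend to open in the lineage that uses them.

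The B-lineage identity of the lines was visible in the same lists. Of 25 B-lineage genes, 24 and 23 had a promoter peak in the WT lists and 24 and 22 in the K43M lists, and 21 (84.0%) had one in all 4 lists. *Pax5*, which maintains B-cell identity, had a fold enrichment of 6.39 and 6.92 in the WT lists and of 7.57 and 8.04 in the K43M lists. Fold enrichment is the ratio of the signal at the summit of a peak to the local background of the same library.

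Few promoters of the myeloid, erythroid and megakaryocyte genes were open. A promoter peak was present at 7 and 11 genes in the WT lists and at 10 and 10 genes in the K43M lists. That is 20.6% to 32.4% of the 34 genes, whereas 50.4% to 53.9% of all protein-coding genes had one in these lists. At least 1 list had a promoter peak for 13 of the 34 genes (38.2%), against 56.5% of all genes, and all 4 lists had one for 3 genes (8.82%), against 47.5% of all genes. The 3 genes were *Gfi1b*, *Tal1* and *Prtn3*. The remaining 21 genes (61.8%) had no promoter peak in any list.

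**Figure D1:**
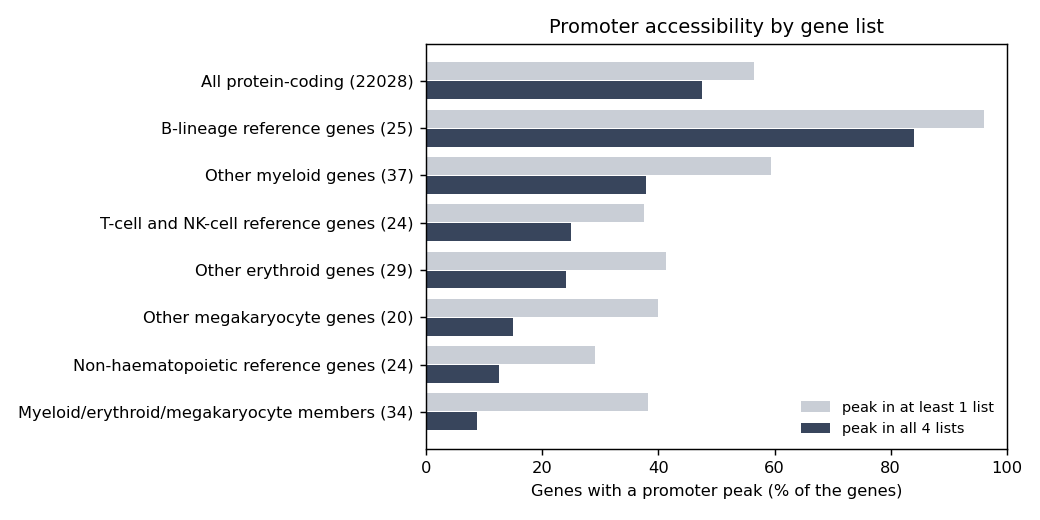
Share of genes with a promoter peak in at least 1 list (light bars) and in all 4 lists (dark bars), for all protein-coding genes and for 7 gene lists with the number of genes in parentheses; the axis is the percentage of the genes. The 34 genes stand at 38.2% and 8.82%, the B-lineage genes at 96.0% and 84.0%, and all genes at 56.5% and 47.5%.

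The counts of the genotypes overlapped. The mean was 9.0 genes with a promoter peak in the WT lists (SD 2.83, n = 2) and 10.0 in the K43M lists (SD 0, n = 2), a difference of 1.0 gene that is smaller than the spread between the WT lines. Without WT unnumbered the difference was -1.0 gene, and without WT replicate 2 it was 3.0 genes, so its direction rested on which WT line was used. With 2 libraries per genotype no exact permutation test over libraries can give a p below 0.33, and differences between genotypes are given as values without a test.

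At 3 genes the promoter was called in the lists of a single genotype, and there in both of them. *Cebpb* and *Cebpd* had them in the K43M lists only (2 genes, 5.88%, against 1.99% of all genes). *Lyz2* had one in the WT lists only (1 gene, 2.94%, against 0.513% of all genes). These are counts of 2 genes and 1 gene, and they describe the 4 lines at hand. With WT unnumbered as the lone WT list, 5 genes had promoter peaks in the K43M lists only, with *Fcgr1*, *Fcgr3* and *Itga2b* joining *Cebpb* and *Cebpd*. Against WT replicate 2 alone there were 2. The share of all genes was not counted with a WT list left out, and the 1.99% does not apply to these counts.

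The sequences of the 150 bases before the start of these 3 genes, and of *Fcgr1* as a myeloid promoter that was open in 3 lists, are printed here because they lay wholly within the called regions and show how unlike these promoters are. They are from the GRCm38 (mm10) genome, 5′ to 3′ on the strand of the gene, with CpG dinucleotides in capitals. The *Cebpb* stretch is at chr2:167688765-167688914 on the plus strand, *Cebpd* at chr16:15887136-15887285 on the plus strand, *Lyz2* at chr10:117282322-117282471 on the minus strand and *Fcgr1* at chr3:96293970-96294119 on the minus strand.
Cebpb: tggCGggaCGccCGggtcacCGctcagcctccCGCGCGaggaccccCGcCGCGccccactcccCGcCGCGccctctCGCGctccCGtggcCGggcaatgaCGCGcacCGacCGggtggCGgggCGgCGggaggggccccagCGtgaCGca
Cebpd: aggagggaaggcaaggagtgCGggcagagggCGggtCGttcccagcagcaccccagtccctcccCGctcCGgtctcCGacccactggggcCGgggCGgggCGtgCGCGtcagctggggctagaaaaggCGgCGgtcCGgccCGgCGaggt
Lyz2: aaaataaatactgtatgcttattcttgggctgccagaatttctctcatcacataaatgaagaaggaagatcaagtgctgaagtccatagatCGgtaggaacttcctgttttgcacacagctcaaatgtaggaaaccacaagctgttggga
Fcgr1: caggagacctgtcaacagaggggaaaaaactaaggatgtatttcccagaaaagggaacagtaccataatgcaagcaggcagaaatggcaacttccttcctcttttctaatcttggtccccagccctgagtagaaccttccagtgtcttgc
The *Cebpb* stretch held 26 CpG dinucleotides and was 82.0% G and C, and the *Cebpd* stretch held 16 and was 74.7% G and C. The *Lyz2* stretch held 1 CpG and was 40.0% G and C, and the *Fcgr1* stretch held none and was 46.7% G and C. Among these 3 genes, the stretches of *Cebpb* and *Cebpd* were thus CpG-dense and that of *Lyz2* was CpG-poor. This describes 3 genes and is no contrast between the genotypes. The CpG content of all promoters with these patterns was not counted. The *Fcgr1* stretch, without a CpG, was called in both K43M lists and in WT replicate 2.

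Of the 5 granulocyte and monocyte transcription factors, 4 had a promoter peak in some list and none had one in all 4 lists. *Cebpb* encodes C/EBPβ, a factor of monocyte and macrophage genes and of emergency granulopoiesis. Its promoter region (chr2:167688623-167689288, summit in the 5′ UTR) had a fold enrichment of 3.85 in K43M replicate 1 and 5.51 in K43M replicate 2, with 17 and 23 read ends at the summit. No peak was called there in either WT list, whose nearest summits were 3622 and 3599 bp from the start. The K43M peaks were modest: ranked by -log10 q within its own list, the peak stood at percentile 10.8 in K43M replicate 1 and 45.0 in K43M replicate 2. With only peaks of -log10 q of at least 5, or with the same number of peaks (33038) taken from each list, *Cebpb* no longer had a promoter peak in both K43M lists.

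The flanks of *Cebpb* were open in both genotypes. A region 8802 bp before the start had a fold enrichment of 5.50 and 8.15 in the WT lists and 8.13 and 6.65 in the K43M lists, and a region 9158 bp after the start had 7.91 and 10.3 in the WT lists and 8.70 and 11.3 in the K43M lists. Both flanking regions were called in every line. A region 3599 bp before the start was called in both WT lists and in K43M replicate 1. One 955 bp after the start, which also lies in the promoter window of *Tmem189*, was called in K43M replicate 1 alone.

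*Cebpd* encodes C/EBPδ, another factor of inflammatory myeloid genes. Its promoter region (chr16:15886624-15887302) had a fold enrichment of 5.29 and 5.74 in the K43M lists, with 17 and 16 read ends at the summit. A neighbouring region over the coding exon (chr16:15887488-15888090) was also called in both K43M lists, with 3.78 and 4.39. The WT lists had no peak in the whole extended window of *Cebpd*, and their nearest summits were 23889 and 23948 bp from a start. Under every other window, threshold, peak number and overlap rule tried, *Cebpd* had a promoter peak in both K43M lists and in neither WT list.

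*Cebpe*, a factor of late granulocyte maturation, had a peak that reached the edge of its promoter window in both WT lists and in K43M replicate 1, with fold enrichments of 5.69, 6.70 and 5.04. The summits lay 2058 to 2081 bp before the start, just outside the window. A second region 2583 bp before the start was called in all 4 lists, with 5.33 and 5.46 in WT and 4.76 and 3.91 in K43M. *Cebpa*, which starts the granulocyte and monocyte programme, had no peak in its extended window, and the nearest summits were 37454 to 62613 bp away.

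*Gfi1* encodes a zinc-finger repressor used in granulocytes and also in early lymphoid cells, so that a peak there does not mark the myeloid branch alone. Its promoter region (chr5:107724945-107726394) had 79 and 57 read ends at the summit in the WT lists and 22 in K43M replicate 1, with fold enrichments of 6.73, 7.16 and 5.84. K43M replicate 2 had no peak there, and its nearest summit was 126686 bp away. The local background moved with the pileup: it was 10.9 and 7.10 read ends per 200 bp in the WT lists and 2.94 in K43M replicate 1, while the lowest background of these lists was 1.31, 1.13 and 1.10. Its part in the difference was not tested.

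**Figure D2:**
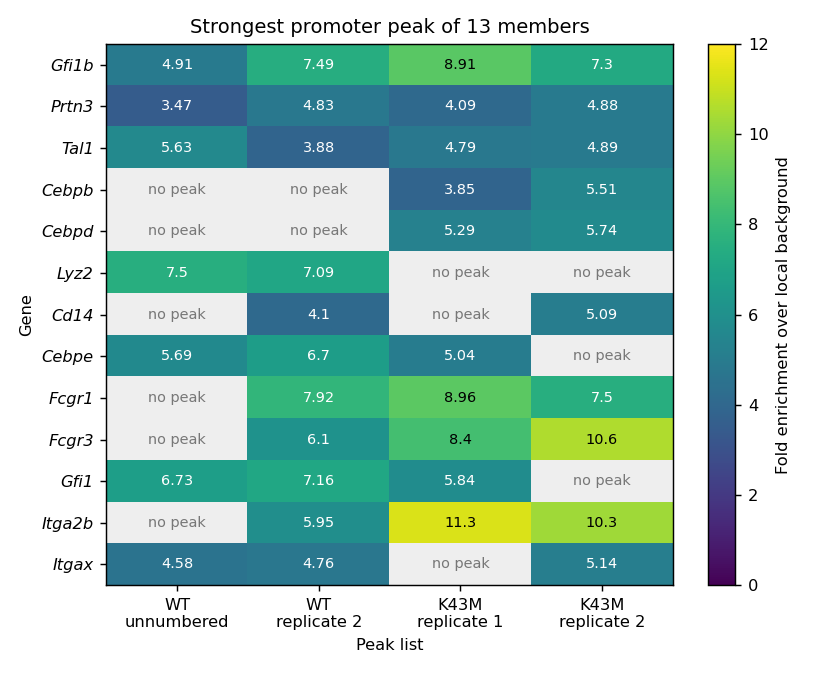
Fold enrichment over local background (colour scale and printed value) of the strongest promoter peak of the 13 genes that had one; grey cells mark no peak. *Gfi1b*, *Prtn3* and *Tal1* are filled in all 4 lists, *Cebpb* and *Cebpd* in the K43M lists only and *Lyz2* in the WT lists only.

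Granule and antimicrobial proteins are the products of granulocytes and macrophages, and 8 of 10 of their genes had no promoter peak in any list. *Mpo* (myeloperoxidase), *Ctsg* (cathepsin G), *S100a8*, *S100a9* (the calprotectin subunits) and *Camp* (cathelicidin) had no peak in their extended windows either. The nearest summits were 28879 to 33916 bp from *Mpo* and 182900 to 201532 bp from *Ctsg*. *Elane* (neutrophil elastase), *Lyz1* and *Ltf* (lactoferrin) had peaks only away from their promoters.

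*Lyz2* encodes the lysozyme of macrophages and granulocytes, whose promoter is widely used to mark the myeloid lineage. Its promoter region (chr10:117282176-117282493, summit in the 5′ UTR) had a fold enrichment of 7.50 in WT unnumbered and 7.09 in WT replicate 2, with 20 and 19 read ends at the summit. These peaks stood at percentiles 46.3 and 47.4 of their lists. Neither K43M list had a peak there, and their nearest summits were 3688 bp away in replicate 1 and 6799 bp in replicate 2. *Lyz2* kept this pattern under every window, threshold, peak number and overlap rule tried. The promoter windows of *Lyz2* and of its neighbour *Lyz1* held 14.1% and 17.9% of 50-base stretches that occur again elsewhere in the genome, and the authors had removed reads with several positions. An intronic region of *Lyz1* (chr10:117288475-117289317), which encodes the Paneth cell lysozyme, was called in all 4 lists, with 7.94 and 9.09 in WT and 8.38 and 6.41 in K43M.

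*Prtn3*, which encodes proteinase 3, was the one granule gene with a promoter peak in all 4 lists, with fold enrichments of 3.47 and 4.83 in WT and 4.09 and 4.88 in K43M. The peaks lay inside the gene, with the summit of the merged region in an intron, and far from any annotated start. The nearest start, which they precede, is an internal one. Their summits were 2079 and 2300 bp before the nearest start in WT and 1526 and 1724 bp before it in K43M, so a rule that asks for the summit inside the window gave *Prtn3* to the K43M lists only. The region also lies in the extended window of *Elane*, which sits next to *Prtn3*.

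Of the 10 myeloid surface and lysosomal genes, 1, 4, 2 and 4 had a promoter peak in the lists in the order given above, 4 had one in any list and none had one in all. *Fcgr1*, the high-affinity IgG receptor of macrophages, had promoter peaks in WT replicate 2 (fold enrichment 7.92) and both K43M lists (8.96 and 7.50), with 18, 23 and 20 read ends at the summit, and none in WT unnumbered. Its gene body held a small region in the K43M lists only (chr3:96284598-96284798), with 9 and 7 read ends.

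*Fcgr3* encodes an activating IgG receptor of macrophages and NK cells. Its strongest promoter region, with the summit in an intron (chr1:171064041-171065011), had 12 read ends at the summit in WT replicate 2 and 43 and 51 in the K43M lists, and was not called in WT unnumbered. Its other promoter region, 14 bp after another start (chr1:171059219-171059620), had 14 read ends in WT replicate 2 and 22 and 12 in the K43M lists, which overlap. A region 9561 bp before the start (chr1:171074319-171074611) was called in the K43M lists only, with fold enrichments of 8.28 and 9.20. Repeated sequence is common here: 34.8% of the 50-base stretches of its promoter windows occur elsewhere in the genome. Its part in these values was not tested.

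*Itgax* (CD11c, of dendritic cells) had small promoter peaks in both WT lists and K43M replicate 2, with 13, 11 and 10 read ends. They lay near the start of a retained-intron transcript, and no list had a peak at the starts of its protein-coding transcripts. *Cd14*, the monocyte co-receptor for bacterial lipopolysaccharide, had promoter peaks of 10 read ends in WT replicate 2 and 11 in K43M replicate 2. *Itgam* (CD11b), *Cd68*, *Adgre1* (F4/80), *Ly6c1*, *Ly6g* and *Mrc1* (the mannose receptor CD206) had no promoter peak. In *Ly6c1* 52.8% of the 50-base stretches of the promoter windows were repeated elsewhere and in *Cd68* 22.6%, and their part in the missing peaks was not tested. *Adgre1*, *Ly6c1* and *Ly6g* had no peak in their extended windows either.

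Of the 5 erythroid and megakaryocyte transcription factors, *Gfi1b* and *Tal1* had promoter peaks in all 4 lists and *Gata1*, *Gata2* and *Klf1* in none. *Gfi1b* encodes a repressor needed for red cells and platelets. Its promoter region (chr2:28621623-28622094) had fold enrichments of 4.91 and 7.49 in WT and 8.91 and 7.30 in K43M, with 15, 24, 30 and 26 read ends at the summit. It was the one gene of the 34 with a promoter peak in all 4 lists under every setting other than leaving out libraries. It also had 3 further regions in all 4 lists, at 8299 bp before and 9301 and 15737 bp after a start.

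*Tal1* encodes a helix-loop-helix factor of blood stem cells, red cells and megakaryocytes. The fold enrichments of its promoter peaks were 5.63 and 3.88 in WT and 4.79 and 4.89 in K43M, with 23 and 9 read ends at the summit in WT and 17 and 16 in K43M. The peak in WT replicate 2 was near the calling limit, at percentile 1.43 of that list, whereas the others stood at percentiles 38.9, 24.3 and 24.03. The lowest summit pileup that was called at all was 6 to 7 read ends. *Tal1* had 3 other regions in all 4 lists, including one 8469 bp before a start with 6.25 and 6.69 in WT and 6.07 and 7.60 in K43M.

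The distal regions of *Gfi1b* and *Tal1* are printed as examples of non-promoter sequence that was called in every line. They are 150 bases around the summit, on the strand of the gene, with CpG in capitals, at chr2:28630207-28630356 (minus strand) and chr4:115047883-115048032 (plus strand). With them is an intronic region of *Mrc1* at chr2:14280832-14280981 (plus strand), which is described below.
Gfi1b: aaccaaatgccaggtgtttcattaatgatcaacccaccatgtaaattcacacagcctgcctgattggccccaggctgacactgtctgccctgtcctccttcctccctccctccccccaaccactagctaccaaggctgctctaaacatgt
Tal1: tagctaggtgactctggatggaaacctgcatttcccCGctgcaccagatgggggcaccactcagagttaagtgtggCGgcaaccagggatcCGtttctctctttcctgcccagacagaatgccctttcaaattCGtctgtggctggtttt
Mrc1: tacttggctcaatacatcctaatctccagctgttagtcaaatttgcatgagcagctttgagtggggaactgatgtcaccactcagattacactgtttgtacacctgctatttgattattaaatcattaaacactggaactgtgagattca
The *Gfi1b* and *Mrc1* stretches held no CpG, and the *Tal1* stretch held 4. Their G and C content was 52.7% in *Gfi1b*, 53.3% in *Tal1* and 38.7% in *Mrc1*, all far below the stretches before *Cebpb* and *Cebpd*.

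*Gata1*, the main erythroid and megakaryocyte factor, had no peak in its extended window, and the nearest summits were 16219 to 16251 bp away in all 4 lists. *Gata2*, a factor of stem cells and mast cells, had 1 peak 4234 bp before a start, in K43M replicate 2 alone, with 8 read ends. *Klf1*, the activator of adult globin genes, had a region 1284 bp after its start, over coding sequence (chr8:84902788-84903649), with fold enrichments of 10.2 and 9.30 in WT and 10.2 and 8.01 in K43M. Its other regions lay at the promoters of the neighbours *Gcdh* and *Dnase2a*.

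Among the 4 globin and platelet genes, *Itga2b* alone had promoter peaks. *Itga2b* encodes CD41, the platelet integrin subunit that also marks early blood progenitors. The region 52 bp before one of its starts (chr11:102467009-102467437) had 10 read ends at the summit in WT replicate 2 and 23 and 21 in the K43M lists, with fold enrichments of 5.14, 11.3 and 10.3, and was not called in WT unnumbered. Its other promoter regions differed less. The one at chr11:102455707-102456385 had 14 read ends in WT replicate 2 and 17 and 17 in the K43M lists, and the one at chr11:102461549-102461918 had 8 in WT replicate 2 and 8 in K43M replicate 2 and was not called in the other lists. The peaks of *Itga2b* lay at starts of noncoding transcripts within the gene, and no list had a peak at the start of a protein-coding transcript of *Itga2b*. *Pf4* (platelet factor 4), *Hbb-bt* and *Hba-a1* (adult globins) had peaks only outside their promoter windows.

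Taking extended windows, 24 of the 34 genes (70.6%) had a peak in at least 1 list, against 73.7% of all genes, and 19 (55.9%) had one in all 4 lists, against 62.4% of all genes. Peaks away from the promoter were common, and 11 genes had peaks in the extended window but none at the promoter. The WT lists had 46 and 53 peaks in these windows and the K43M lists 58 and 55. Per 100 kb of window this was 4.01, 4.62, 5.05 and 4.79 peaks, above the 1.94, 2.01, 2.33 and 2.1 of the windows of all genes, which are longer on the whole.

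Distal regions were called at the genes without promoter peaks as follows. *Itgam*, whose product CD11b marks macrophages and granulocytes, had an intronic region (chr7:128100677-128101489) with fold enrichments of 8.04 and 8.89 in WT and 10.1 and 9.65 in K43M. *Pf4*, a chemokine of platelet granules, had a region 1179 bp after a start (chr5:90773831-90774304) with 12.3 and 10.8 in WT and 11.2 and 6.25 in K43M. *Ltf* had a region 7569 bp after a start with 7.45 and 5.68 in WT and 5.86 and 5.88 in K43M. These regions were called in all 4 lines, and the WT and K43M values overlapped at *Pf4* and *Ltf*. *Hba-a1* had 1 region, at the promoter of the neighbouring globin gene *Hbq1b*, in WT replicate 2 (6.09) and K43M replicate 1 (4.28). *Elane* had a region 6652 bp after the start, which also lies in the extended window of *Prtn3*, in WT unnumbered (5.40) and K43M replicate 1 (6.52).

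The mean number of peaks in the extended windows was 49.5 in WT (SD 4.95, n = 2) and 56.5 in K43M (SD 2.12, n = 2), a difference of 7.0 peaks. The 4 lists did not overlap between genotypes in this count, but total peak numbers moved the same way. With the same number of peaks taken from each list the counts were 46, 50, 47 and 52, which overlap, and the difference was 1.5 peaks. With flanks of 25 kb it was 0.5 peaks.

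**Figure D3:**
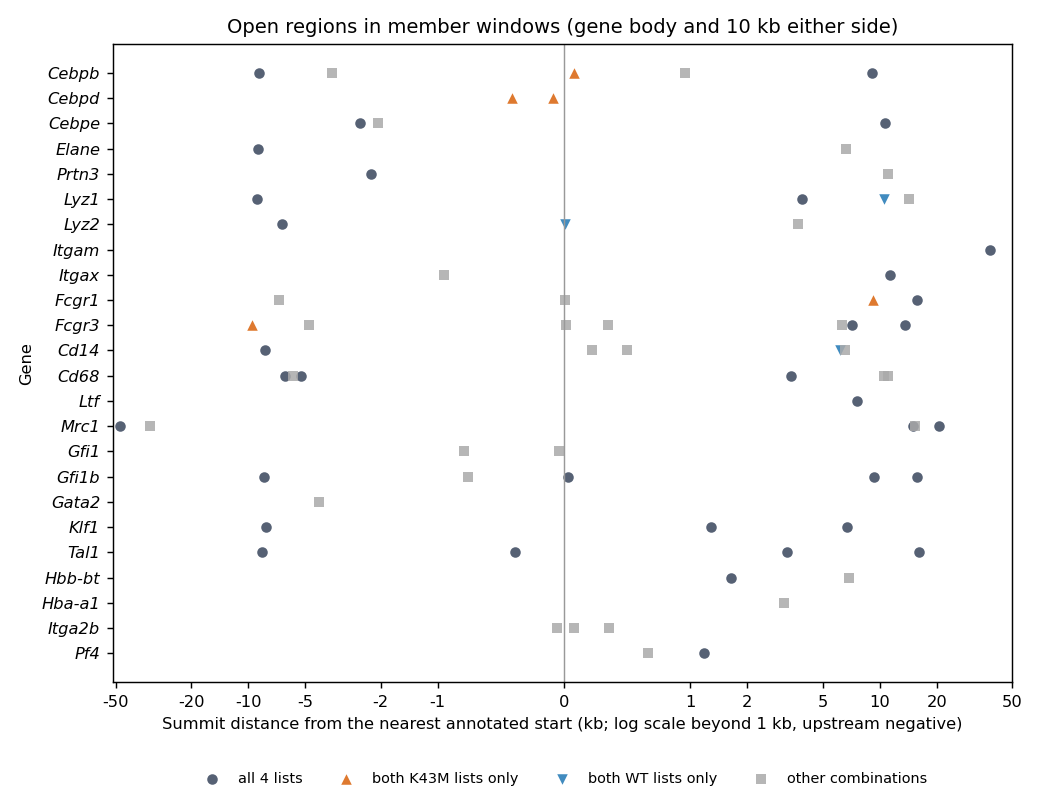
Merged open regions in the extended windows of the 24 genes that had any, by distance of the summit from the nearest annotated start in kb (linear within 1 kb, log scale beyond; upstream negative); symbols give the lists in which a region was called, and a region in the windows of 2 genes is drawn at both. Dark circles, called in all 4 lists, lie mostly away from 0, and the orange and blue triangles mark the 5 regions of K43M lists only and the 2 of WT lists only.

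Peaks of the 4 lists merged into 70 regions in these windows. Of these, 33 were called in all 4 lists (47.1%, against 41.2% of all 50965 regions), 5 in both K43M lists only (7.14%, against 7.64%) and 2 in both WT lists only (2.86%, against 4.51%). The shares of the strict patterns were near or below those of all regions. The K43M-only regions were the *Cebpb* promoter, both *Cebpd* regions, the *Fcgr1* gene body region and the *Fcgr3* upstream region. The WT-only regions were the *Lyz2* promoter and a region 6206 bp after a start of *Cd14*.

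By place, 3 of 19 regions at the genes' own promoters were called in all 4 lists (15.8%), whereas 13 of 23 in downstream flanks (56.5%), 8 of 15 in gene bodies (53.3%) and 11 of 17 in upstream flanks (64.7%) were. Of all 50965 regions, 41.2% were called in all 4 lists, and of all regions outside promoters 29.8%. The share among all regions at promoters was therefore above 41.2%, though it was not computed by itself. In the flanks, 6 downstream and 6 upstream regions lay at promoters of other genes. The flank shares are thus not directly comparable with the 29.8%. A region in the windows of 2 genes is counted at each of its places. Some regions lay at promoters of neighbours. Of the 70 regions, 13 lay in the promoter window of another protein-coding gene, and 10 of these were in flanks and at promoters of genes outside the set of 34. All 6 regions in the window of *Cd68* were of this kind, at *Sox15*, *Mpdu1* and *Eif4a1*.

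At the 33 regions called in every list, the fold enrichment of both K43M lists was above both WT lists in 5 (15.2%, against 21.2% of all such regions) and below both in 6 (18.2%, against 20.5%). The median log2 ratio of K43M to WT was -0.03. Both shares were below those of all such regions.

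The pileup, which is the number of 200 bp windows centred on read ends that cover the summit, differed more at a few regions, picked here after their values were seen. In an intron of *Mrc1* (chr2:14280530-14281435, 47655 bp before the second annotated start) it was 42 and 52 read ends in WT and 13 and 10 in K43M, with fold enrichments of 12.4 and 15.1 against 6.66 and 5.45. At 1637 bp after the start of *Hbb-bt* (chr7:103812043-103812856) it was 51 and 49 in WT and 17 and 20 in K43M, with fold enrichments of 8.39 and 10.2 against 7.14 and 7.90. The local background there was 5.2 and 3.92 read ends in WT and 1.52 and 1.66 in K43M. At the *Mrc1* region it was 2.48 and 2.50 in WT and 1.10 and 1.02 in K43M. At both regions the groups did not overlap in pileup or in background, and the part of the background was not tested. The share of all regions with such a pattern was not counted. Pileups are not scaled for depth. The genome-wide background was 65.3 and 56.7 read ends per 10 kb in WT and 55.1 and 48.4 in K43M.

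**Figure D4:**
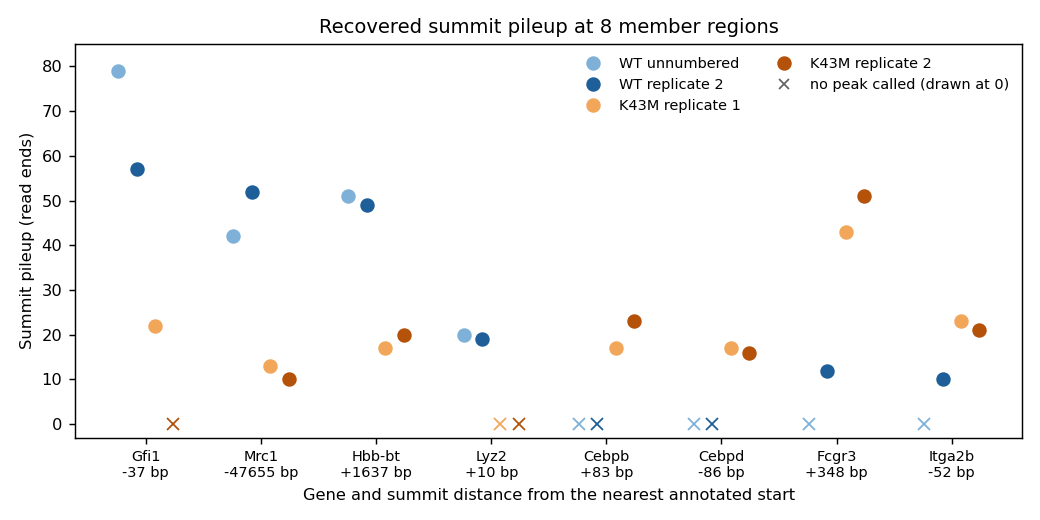
Number of read ends at the summit of 8 regions, named by gene and by distance from the nearest annotated start in bp, in WT (blue) and K43M (orange) lists; a cross drawn at 0 marks a list without a called peak and is no measured 0. The regions were picked after their values were seen; *Gfi1*, *Mrc1* and *Hbb-bt* are higher in both WT lists, and *Fcgr3* and *Itga2b* are higher in both K43M lists than in WT replicate 2. Read ends are not scaled for depth, and the share of all regions with such patterns was not counted.

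Further genes of the same lineages, in lists chosen by function, were examined in the same way. Of 37 other myeloid genes, 22 had a promoter peak in some list and 14 (37.8%) in all 4. These included *Spi1*, which encodes PU.1 (fold enrichment 7.77 and 9.86 in WT, 8.24 and 9.72 in K43M), *Irf8* (11.4 and 11.8, then 8.95 and 8.99) and *Csf2ra*, a subunit of the GM-CSF receptor (9.71 and 12.1, then 10.2 and 10.4). *Spi1* and *Irf8* are also used in B cells, and *Ncf4*, another leading gene of this list, encodes an NADPH oxidase subunit that is expressed in B cells too. *Fes* and *Mertk* were among the 3 genes with promoter peaks in the K43M lists only, against 1.99% of all genes. The 2 genes *Cd33* and *Siglech* had them in the WT lists only, against 0.513% of all genes, so both directions occurred.

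Of 29 other erythroid genes, 12 had a promoter peak in some list and 7 (24.1%) in all 4. The leading ones, *Nfe2*, *Bpgm*, *Tfrc* (the transferrin receptor, needed by all dividing cells), *Zfpm1* and *Lmo2*, are not limited to red cells. *Rhd* was called in K43M only (4.06 and 4.36) and *Hbb-bh1*, an embryonic globin gene, in WT only (7.63 and 6.39). Each is 1 of the 29 genes, against 1.99% of all genes in K43M only and 0.513% in WT only. Of 20 other megakaryocyte genes, 3, 4, 8 and 7 had a promoter peak in the 4 lists, and 3 (15%) had one in all: *Selp*, *P2ry12* and *Itgb3*. *Gp1bb*, *Pdgfa* and *Rab27b*, 3 of the 20 genes, were called in the K43M lists only, a pattern of 1.99% of all genes. *Gp1bb* was near the calling limit, at percentiles 0.13 and 3.75 of the K43M lists. *Pdgfa* stood at percentiles 2.52 and 36.1 of the K43M lists. *Rab27b*, which acts in platelet granule release, was strong in the K43M lists, with fold enrichments of 13.6 and 11.8.

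Genes of T cells and NK cells and of tissues outside blood served as reference lists. Of 24 T-cell and NK-cell genes, 6 (25%) had a promoter peak in all 4 lists, and of 24 genes of tissues outside blood 3 (12.5%) had one. The 34 genes stood at 8.82% by this measure. For a peak in at least 1 list the 34 genes were no longer the lowest, while the T-cell and NK-cell genes stayed above the genes outside blood. By that measure the 34 genes stood at 38.2%, the T-cell and NK-cell genes at 37.5% and the genes outside blood at 29.2%. These differences were not tested. A strict pattern also occurred in these reference lists, for *Cd5* and *Ckm*, both called in the K43M lists only. Each is 1 gene of 24, against 1.99% of all genes.

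CpG content of the promoters was set beside these counts. Of the 34 genes, 30 had a 300-base RefSeq promoter (GRCm38), and 5 of them (16.7%) were CpG-rich, with over 50% G and C and a ratio of observed to expected CpG above 0.6: *Cebpa*, *Cebpb*, *Gfi1*, *Gata2* and *Tal1*. Among 16522 genes with such a sequence 49.9% were CpG-rich. CpG-rich promoters had a peak in at least 1 list at 3 of these 5 genes, against 86.0% of all CpG-rich genes. CpG-poor ones had one at 7 of 25 (28.0%), against 31.7% of all CpG-poor genes. In all 4 lists the CpG-poor genes had one at 2 of 25 (8.0%), against 22.5%.

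Short motifs of lineage factors were searched on both strands of the same RefSeq promoters, as a description of the letters only. GAGGAAGT, a form bound by PU.1 that contains the ETS core, was present at 7 of 30 promoters (23.3%, against 3.62% of all): *Mpo*, *Elane*, *Prtn3*, *S100a8*, *Ly6c1*, *Ly6g* and *Pf4*. Of these 7 genes, 1 had a promoter peak in at least 1 list. It was *Prtn3*, with summits 1526 to 2300 bp before the nearest annotated start. Of all 30 genes 10 (33.3%) had such a peak, against 58.8% of the 16522 genes. TTGCNNAA, the C/EBP form, was at 9 promoters (30.0%, against 11.5%), and GATAA, the GATA form, at 11 (36.7%, against 25.3%). CCCNNGGGA, the EBF1 form, was at 7 (23.3%, against 8.59%), and TGTGGTTT, the RUNX form, at *Lyz2* alone (3.33%, against 1.85%).

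Within 100 bp of the summits of the 70 regions, GATAA was found in 12.9% (13.8% of all regions), TTGCNNAA in 12.9% (6.81%), GAGGAAGT in 11.4% (6.90%), CCCNNGGGA in 8.57% (10.1%) and TGTGGTTT in 1.43% (4.43%).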

How the data were processed

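ATAC-seq peak lists of 4 mouse BCR-ABL(p185) lines were analysed; reads were not. Per the study's methods and the submitters' processing notes, the authors trimmed reads (Trimmomatic 0.36), mapped them to mm10 (bwa-mem 0.7.15), filtered them (SAMtools 1.3.1), removed blacklisted and multiply mapped reads, and called peaks per library with MACS2 2.1.0, with reads shifted to the cut site. No control or pooling is named. Fold enrichment, as deposited, is a ratio of the summit signal to the local background. The authors' -log10 p and -log10 q values hold within 1 list. Summit pileup and background were recovered from fold enrichment and -log10 p under a Poisson model (100% of peaks, tolerance 0.01). Intervals need read totals, which peak lists do not give, so depth is known only through these values.

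Windows came from GENCODE M21 protein-coding genes, later than the authors' release, and an overlap of 1 bp counted. Peaks of the 4 lists that overlapped were merged into regions. Groups came from the labels, and for the list without a sample from the series' design text. The 34 genes, the lists and the rules were chosen with earlier results of these data known. All 34 genes are named. Those with a promoter peak are given by list, others by their best peak, and up to 5 leading genes are named from each other list. Some genes of the other lists are not reported here. Regions and genes are not replicates. The distinct lines are the replicates, and counts were set beside those of all genes without a test between lists. On simulated data, 4000 of 4000 windows and 2000 of 2000 pileups were recovered. Alternatives changed the window, transcripts, threshold, peak number, overlap, flank and libraries. Calculations used Python 3.11.15, numpy 2.4.6, pandas 2.3.3, scipy 1.17.1 and matplotlib 3.10.9.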

Additional observations from a re-analysis of the deposited data

How the results depend on the processing

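The difference in genes with a promoter peak, 1.0 gene more in K43M, was 0.5 to 2.5 genes under other windows, thresholds, peak numbers, overlaps and transcripts. Leaving out libraries gave -1.0 (without WT unnumbered) to 3.0 genes (without WT replicate 2). The count of 3 genes in all 4 lists fell to 1 with -log10 q of at least 5 and to 1 with the same number of peaks per list, and was 3 to 6 when a library was left out (6 without WT unnumbered, 5 without K43M replicate 2), where fewer lists had to be met. The count of 2 genes in the K43M lists only was 1 under both of those peak rules, *Cebpd* alone, and 2 to 5 when a library was left out (5 without WT replicate 2). With the summit inside the window it was 3, with *Prtn3* added. The count of 1 gene in the WT lists only was *Lyz2* under all of these rules, and 1 to 3 when a library was left out (3 without K43M replicate 1, 2 without K43M replicate 2). The difference of 7.0 peaks in the extended windows was 0.5 with flanks of 25 kb and 1.5 with the same number of peaks per list, and 3.5 to 10.5 when a library was left out. Shares of all genes with a library left out were not counted. The causes were not tested. For single genes, 50 of 65 values kept their difference between lists and 15 moved. No paired analysis was possible because the labels name no pairs of WT and K43M lines. Depth limits peaks of few read ends, and a peak missed in 1 list ends a strict pattern.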
